A study of Mus musculus with 6 samples.

Results

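The genes described are those of 3 classes of liver plasma proteins and their closest regulators: the acute phase response (21 genes), complement (13 genes) and blood coagulation (17 genes). They were chosen by name and not by a measured threshold, though with earlier results of these data known, as 51 listed genes whose symbol in the platform annotation marks a probe on the array. A named probe was found for 50 of the 51, and 49 were tested, beside 7457 named genes and 8058 features tested in all. The third component of complement, C3, has no probe named here and was not analysed. The fibrinogen chain gene Fgb has a probe that was detected on 0 of the 6 arrays.

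The study treated primary hepatocytes with DMSO, the solvent, or with KD3010 or GW1516, 2 agonists of the fatty acid-sensing nuclear receptor PPAR-delta. The cells came from male mice of 10 weeks, wildtype on the c57Bl6/J background in all 3 groups. Each group held 2 Illumina bead arrays of biotin-labelled RNA. The labels call these arrays technical replicates, so every p-value below measures only how far such arrays differ, and no spread of cultures or mice. Dose and duration are not given in the sources used here. KD3010 and GW1516 are therefore compared as they were used and not at a dose known to match. With 2 arrays against 2, an exact permutation test could not give a two-sided p below 0.333, and the tests below therefore come from limma's model across all features.

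Acute phase proteins are secreted by hepatocytes at levels that shift during infection or injury. Interleukin-6 acts through its receptor Il6ra and the shared chain Il6st on the kinase Jak1 and the transcription factor Stat3, while interleukin-1 and tumour necrosis factor act through NF-kappaB, and C/EBP factors take part in both. Hepatocytes are also the main source of most circulating complement components, which tag and lyse microbes, and of the clotting factors, fibrinogen and the inhibitors that hold clotting in check.

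Between 10239 and 10805 of 25697 probes were detected per array (detection p below 0.05), at mean signals of 953.2 to 1157.2. Of the 16 hepatocyte markers with a probe, 12 were detected on all 6 arrays, among them Ttr and Apoa1 at signals of 50616 or more, whereas the 1 probe for albumin, Alb, was detected on 0 arrays. The summed hepatocyte signal did not overlap between groups, at 227879 to 236884 with DMSO, 237578 to 244635 with KD3010 and 246730 to 254601 with GW1516. Of the Kupffer cell markers, 0 of 12 with a probe were detected on all 6 arrays, with Clec4f on 0, and their summed signal overlapped between groups (593 to 662, 638 to 659 and 579 to 694). Of the neutrophil and monocyte markers, 1 of 10 was detected on all 6 arrays, and the sums overlapped too (728 to 797, 732 to 832 and 759 to 817). The sinusoidal endothelial sums of both agonists overlapped DMSO but not each other, at 2502 to 2563 with KD3010 and 2617 to 2784 with GW1516. The stellate cell sum with KD3010 (5101 to 5607) overlapped neither DMSO (4666 to 4908) nor GW1516 (4117 to 5066). Of the 13 stellate cell markers with a probe, 6 were detected on no array and 4 were tested. The cholangiocyte sum with KD3010 (653 to 838) lay below DMSO (886 to 1045) and GW1516 (929 to 1011). Of its 5 markers with a probe, 3 were detected on no array. The 1 tested, Sox9, was 0.48 lower with KD3010 than with DMSO on the log2 scale (adjusted p = 0.380 in limma's test). The lymphocyte sum with GW1516 (470 to 516) lay above DMSO (440 to 457) and KD3010 (444 to 469). Of its 10 markers with a probe, 9 were detected on no array and 0 were tested, so this sum is mostly of undetected values.

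Markers of one cell type also went in different directions, and none was called. Of the 13 tested hepatocyte markers, 10 were higher and 3 lower than DMSO with each agonist. With KD3010 they ran from -0.62 for G6pc to 0.76 for Tdo2, which was not detected on all 6 arrays (adjusted p = 0.202 and 0.257 in limma's test). Of the neutrophil and monocyte markers, S100a8 lay at 5.62 and 6.11 with DMSO against 6.93 and 7.27 with KD3010 on the log2 scale (adjusted p = 0.0985 in limma's test). It was detected on 2 of the 6 arrays, both of KD3010, and so entered the test only through the group where it was high. Mmp9, the one such marker detected on all 6 arrays, was 0.48 lower with KD3010 (adjusted p = 0.373), and S100a9 was detected on 0 arrays. Of the 4 tested stellate cell markers 2 were higher and 2 lower with KD3010, from -0.27 for Acta2 to 0.80 for Vim (adjusted p = 0.251), and Vim was 0.55 lower with GW1516 (adjusted p = 0.507). Of the 9 tested sinusoidal endothelial markers, 4 were higher with KD3010 and 7 with GW1516, while Lyve1 was the lowest in both, at -0.55 and -0.53. The part of these cells in the values below was not tested.

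Some of the plasma protein genes were among the brightest on the arrays. Others were dim, such as F5 (signals of 326 to 412), C1s1 (334 to 402) and Serpinc1 (347 to 446). Hpx, the haem carrier haemopexin, gave signals of 69201 to 71903, which is 96.5 to 99.3% of the highest signal on the same array and close to the top of the scale. Hp (haptoglobin, the haemoglobin scavenger) reached 62.0 to 95.4% of that highest signal. Of the 49 tested genes, 48 were detected on all 6 arrays and had no group in which they were below detection. The exception was Il6ra. Replicate arrays lay closer for these genes than for most features: the median pooled standard deviation between arrays of a group was 0.123 on the log2 scale over the 49 genes and 0.173 over all 8058 features.

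None of the 49 genes passed limma's test in any comparison. A call required both an adjusted p under 0.05 and a 1.5-fold difference or more. For KD3010 against DMSO 0 of 49 genes were called, against 10 of 8058 features (0.124%). For GW1516 against DMSO 0 of 49 were called, against 7 of 8058 (0.0869%). For KD3010 against GW1516 0 of 49 were called, as were 0 of 8058 features (0%). The lowest adjusted p of any of the 49 genes was 0.276, 0.473 and 0.227 in the 3 comparisons. In bulk RNA, fewer cells of a type and less RNA per cell cannot be told apart, here or below.

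The intervals of the changes show how large a difference these arrays leave room for. With KD3010, the 95% interval of the change from DMSO stayed within 2-fold for 48 of 49 genes, against 93.2% of all features, and within 1.5-fold for 37 of 49, against 47.1%. With GW1516, 48 of 49 genes stayed within 2-fold (94.2% of all features) and 31 of 49 within 1.5-fold (49.6%). Between the agonists, 49 of 49 stayed within 2-fold (92.1%) and 31 of 49 within 1.5-fold (44.5%). Il6ra was the gene outside 2-fold in both comparisons with DMSO. Hpx is counted among the genes within 1.5-fold, though its signal was near the top of the scale.

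**Figure D1:**
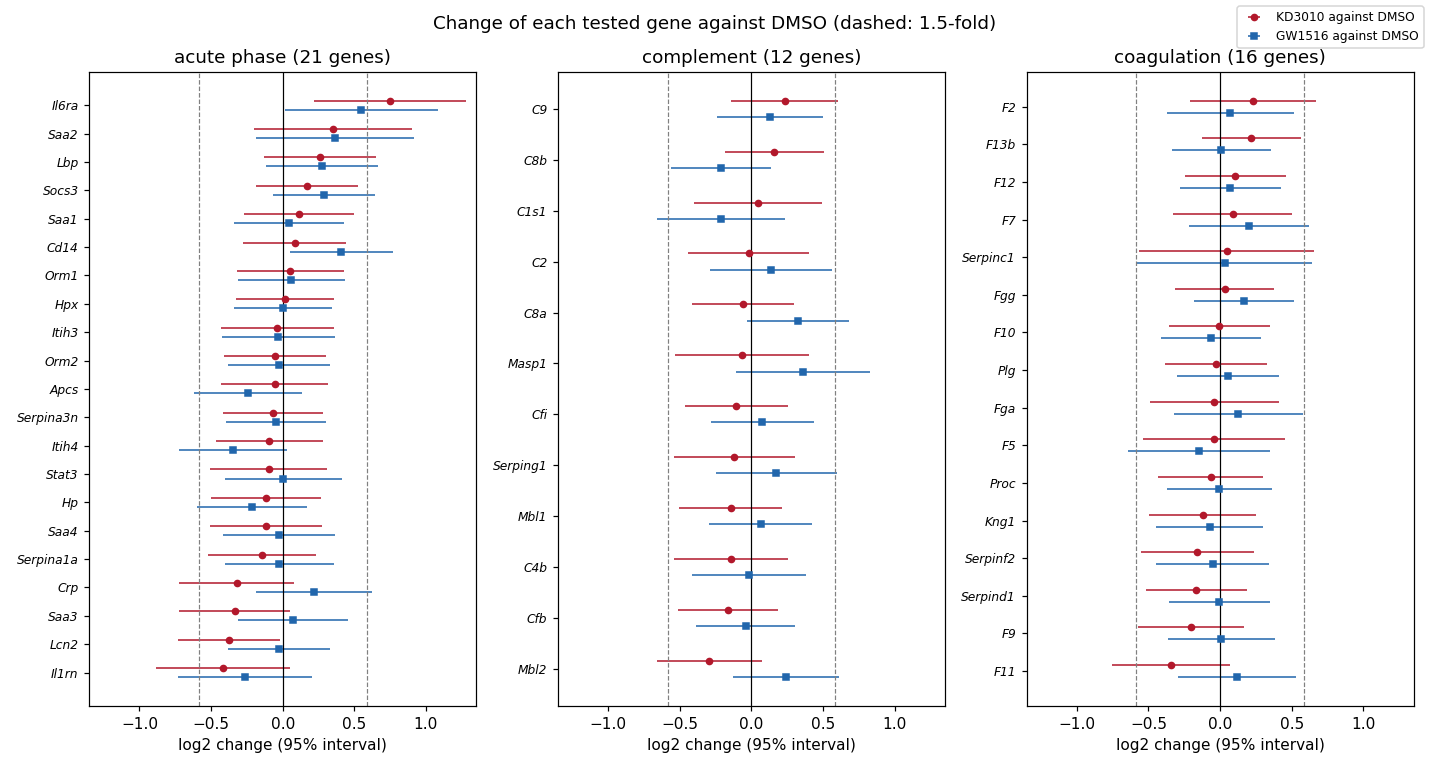
Change of each of the 49 tested genes with KD3010 and with GW1516 against DMSO (x axis, log2 change; y axis, genes by class). Points are limma estimates from 2 arrays a group and bars are 95% intervals; dashed lines mark 1.5-fold. All but Il6ra lie between -0.42 and 0.41, and no gene was called.

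At an unadjusted p below 0.05 with the arrays of both groups apart, a level that passes no correction, few of the genes stood out. With KD3010, 1 gene was higher than DMSO (Il6ra; 5.42% of all features) and 1 was lower (Lcn2; 6.75%). With GW1516, 2 genes were higher (Cd14 and Il6ra; 4.68%) and 0 were lower (4.8%). Between the agonists, 1 gene was higher with KD3010 (C8b; 6.13%) and 5 were lower (C8a, Crp, F11, Mbl2 and Saa3; 7.77%). The 5 lower between the agonists were a larger share of the 49 genes than of all features, and each other count was a smaller share. These counts are small, and their differences from all features were not tested. Il6ra was tested only because it was detected in the treated groups.

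Counted only by whether the arrays of the groups lay apart, 10 of 49 genes were higher with KD3010 than with DMSO (20.4%, against 21.4% of all features) and 10 were lower (20.4%, against 22.6%). With GW1516, 13 were higher (26.5%, against 20.7%) and 6 were lower (12.2%, against 19.8%). Set directly against GW1516, KD3010 had 5 genes higher (10.2%, against 21%) and 16 lower (32.7%, against 24.3%). The 16 were 6 of 12 complement, 5 of 16 coagulation and 5 of 21 acute phase genes. Il6ra, counted as higher with both agonists than with DMSO, entered the test only through the treated groups. Hpx, near the top of the scale, is counted as higher with KD3010 in both of its comparisons.

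Among the acute phase effectors, Lcn2, which encodes the iron-withholding protein lipocalin 2, had the lowest p against DMSO among the genes that were lower with KD3010. Its log2 level was 15.74 and 15.64 on the DMSO arrays, 15.29 and 15.33 on the KD3010 arrays and 15.74 and 15.58 on the GW1516 arrays. Both KD3010 arrays lay below the other 4, while the DMSO and GW1516 arrays overlapped. The difference between KD3010 and DMSO was -0.38 ± 0.16 (SE), or 1.30-fold lower, and was not called (adjusted p = 0.389 in limma's test). Kupffer cells and neutrophils also make lipocalin 2, and the sums of their markers are those given above.

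Saa3, a serum amyloid A gene of the inflamed liver and of macrophages, lay at 10.83 and 10.85 with DMSO, 10.42 and 10.59 with KD3010 and 10.77 and 11.06 with GW1516. Its KD3010 arrays were again the lowest of the 6. The difference was -0.41 ± 0.17 between KD3010 and GW1516 (adjusted p = 0.338 in limma's test) and -0.34 ± 0.17 between KD3010 and DMSO (adjusted p = 0.478), neither called. The difference between the agonists depended on GW1516 array B, without which it was -0.26.

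The promoter windows of Lcn2 and Saa3 are shown because both genes were lowest on the KD3010 arrays and each window holds the letters of a C/EBP motif, TTGCNNAA. The windows run from 250 bases before to 50 bases after the gene start in RefSeq (build GRCm38.p6), on the gene's strand, and capitals mark the match. The Lcn2 window is chr2:32387690-32387989 on the minus strand, with TTGCTCAA from position -216. The Saa3 window is chr7:46715627-46715926 on the minus strand, and its match, at position -99, reads TTGCATAA on the opposite strand.
Lcn2: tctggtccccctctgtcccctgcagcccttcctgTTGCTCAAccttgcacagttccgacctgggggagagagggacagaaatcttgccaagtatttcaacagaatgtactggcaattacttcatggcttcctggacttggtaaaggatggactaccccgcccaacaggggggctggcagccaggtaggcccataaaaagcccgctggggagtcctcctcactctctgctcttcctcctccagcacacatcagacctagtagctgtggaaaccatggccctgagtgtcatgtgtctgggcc
Saa3: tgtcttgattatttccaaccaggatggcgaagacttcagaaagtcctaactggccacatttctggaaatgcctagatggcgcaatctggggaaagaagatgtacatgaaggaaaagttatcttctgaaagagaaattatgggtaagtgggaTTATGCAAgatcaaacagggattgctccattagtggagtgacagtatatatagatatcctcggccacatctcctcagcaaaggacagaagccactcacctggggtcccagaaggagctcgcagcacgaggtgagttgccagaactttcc

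The other serum amyloid A genes did not share the low KD3010 values of Saa3. Saa1, a major acute phase apolipoprotein, lay at 11.44 and 11.26 with DMSO, 11.56 and 11.36 with KD3010 and 11.49 and 11.29 with GW1516. All 3 groups of Saa1 overlapped. For Saa2, its close relative, the DMSO arrays read 10.53 and 11.30, the KD3010 arrays 11.26 and 11.27 and the GW1516 arrays 11.44 and 11.12. The DMSO arrays of Saa2 differed by more than any group means did. Saa1 and Saa2 are near-identical copies, so their probes may share signal, which was not tested.

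Crp, the pentraxin C-reactive protein, which is only a weak acute phase reactant in mice, was the acute phase gene with the lowest p between the agonists. Its log2 level was 13.87 and 13.70 with DMSO, 13.27 and 13.65 with KD3010 and 14.00 on both arrays with GW1516. The KD3010 arrays were the lowest and the GW1516 arrays the highest, with DMSO between them. KD3010 differed from GW1516 by -0.54 ± 0.18, or 1.46-fold lower (adjusted p = 0.235 in limma's test). Without KD3010 array A that difference was -0.35, and without array B it was -0.73. Apcs, serum amyloid P, the other pentraxin, was 0.18 higher with KD3010 than with GW1516 (adjusted p = 0.667), and the arrays did not overlap.

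Hp and Orm1, with Lcn2 among the brightest acute phase genes, and Serpina1a were not called in any comparison. Hp lay at 15.84 and 16.02 with DMSO, 15.72 and 15.91 with KD3010 and 15.62 and 15.82 with GW1516. Its other detected probes read 0.38 and 0.11 higher with GW1516, whereas the brightest, used here, read 0.21 lower, so its direction depended on the probe. Orm1, an orosomucoid that binds drugs in plasma, lay at 15.51 on both DMSO arrays, at 15.43 and 15.70 with KD3010 and at 15.52 and 15.62 with GW1516. Its 95% interval ran from -0.32 to 0.43 with KD3010 and from -0.31 to 0.43 with GW1516. Serpina1a, one of the mouse alpha-1-antitrypsin genes, lay at 13.83 and 14.04 with DMSO, 13.90 and 13.68 with KD3010 and 13.87 and 13.96 with GW1516. The groups of Serpina1a overlapped, and as one of several near-identical copies its signal may be shared.

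Itih4, an inter-alpha-inhibitor chain induced by interleukin-6, was 0.35 ± 0.17 lower with GW1516 (adjusted p = 0.550), with arrays of 14.06 and 14.05 against 14.29 and 14.52 with DMSO. Its other detected probes read -0.05 and 0.01 in the same comparison, with the arrays overlapping. Il1rn, which encodes the interleukin-1 receptor antagonist, lay at 12.22 and 12.36 with DMSO, 11.64 and 12.11 with KD3010 and 11.84 and 12.22 with GW1516. The KD3010 arrays of Il1rn lay below both DMSO arrays, and its difference of -0.42 ± 0.21 was the most negative of the 49 genes (adjusted p = 0.466). Its second probe read -0.21 in the same comparison. The remaining effectors were Orm2, Saa4, Itih3 (another inter-alpha-inhibitor chain) and Serpina3n (a serine protease inhibitor). Their differences ran from -0.12 (Saa4) to -0.04 (Itih3) with KD3010 and from -0.05 (Serpina3n) to -0.03 (Orm2) with GW1516, on the log2 scale. No difference is given for Hpx, whose signal was near the top of the scale on every array.

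Among the receptors, Cd14, the co-receptor that presents bacterial lipopolysaccharide, had the highest values with GW1516. Its log2 level was 14.39 and 14.36 with DMSO, 14.50 and 14.42 with KD3010 and 14.88 and 14.69 with GW1516. Both GW1516 arrays lay above the other 4. The difference from DMSO was 0.41 ± 0.16, or 1.33-fold higher, and was not called (adjusted p = 0.473 in limma's test). Lbp, which carries lipopolysaccharide to Cd14, was 0.26 higher with KD3010 and 0.27 higher with GW1516, with the arrays apart from DMSO in both (adjusted p = 0.605 and 0.660). Cd14 also marks macrophages, whose part in this difference was not tested. Of the 12 Kupffer cell markers with a probe, 9 were detected on no array, so the sums given above are mostly of undetected values. The 1 tested, Ctss, was 0.60 higher with KD3010 and 0.35 higher with GW1516 than with DMSO (adjusted p = 0.445 and 0.747 in limma's test).

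Il6ra, the receptor that binds interleukin-6, was near background. It was detected on both arrays of KD3010 and of GW1516 and on neither DMSO array (detection p of 0.0526 and 0.252), so it entered the test only through the treated groups and had to be higher there. Its log2 level was 6.17 and 5.50 with DMSO, 6.79 and 6.38 with KD3010 and 6.31 and 6.46 with GW1516. The DMSO arrays were the lowest, and differed from each other more than the agonist groups did. The measured log2 difference of Il6ra from DMSO was 0.75 ± 0.24 with KD3010 (adjusted p = 0.276 in limma's test). With GW1516 it was 0.55 ± 0.24 (adjusted p = 0.511), and neither was called. Against a DMSO level that is only a bound, the mean was 1.30-fold higher with KD3010 and 1.13-fold higher with GW1516. The folds against the bound were not tested. Without DMSO array B the measured log2 differences were 0.42 and 0.22. The bound sets the higher of each DMSO array's own value and its lowest detected signal against the mean of the treated arrays.

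Of the intracellular regulators, Stat3 overlapped between all groups, at 10.98 and 11.31 with DMSO, 11.05 on both arrays with KD3010 and 11.29 and 11 with GW1516. Socs3, the feedback inhibitor that Stat3 induces, lay at 9.42 and 9.22 with DMSO, 9.50 and 9.48 with KD3010 and 9.62 and 9.60 with GW1516. Its arrays were in the order DMSO, KD3010, GW1516 with no overlap, at differences from DMSO of 0.17 (adjusted p = 0.723 in limma's test) and 0.29 (adjusted p = 0.607).

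**Figure D2:**
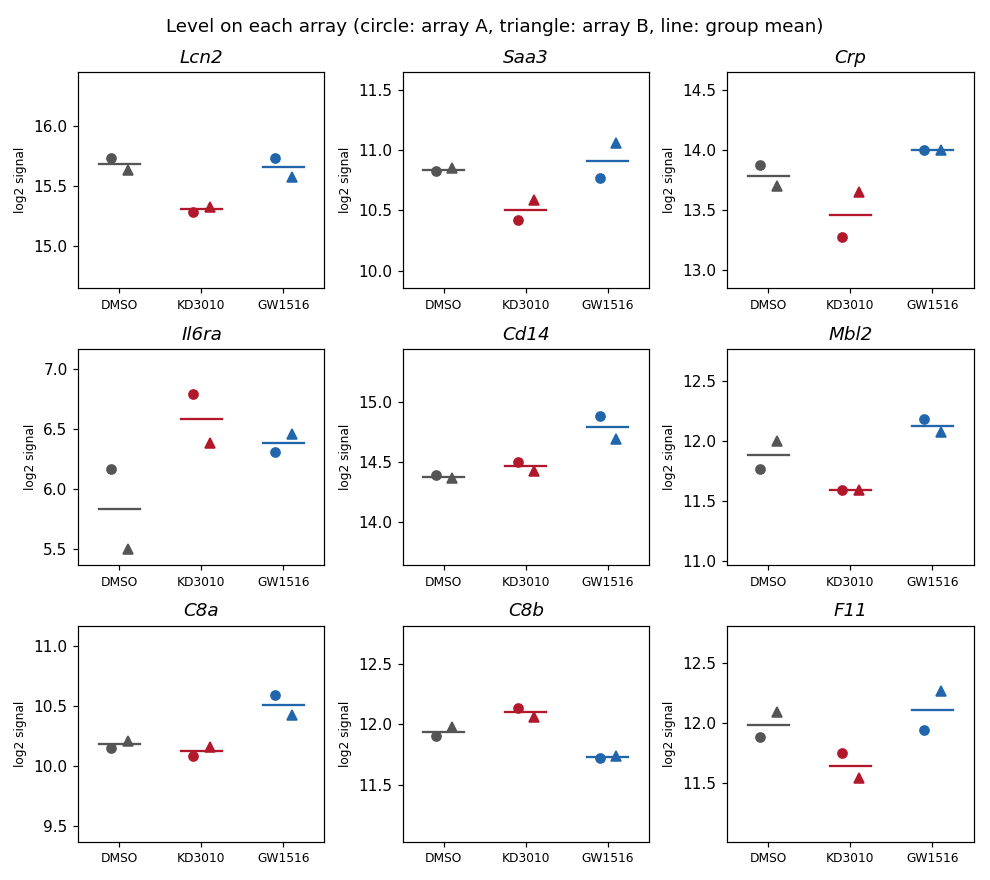
Log2 signal of selected genes on each array (y axis), by treatment (x axis); circles are array A, triangles array B and lines the mean of 2 arrays. Lcn2 and Saa3 were lowest with KD3010, Cd14 was highest with GW1516, and Crp and Mbl2 lay on either side of DMSO.

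Complement held the largest spread between the agonists by class median. The median change of the 12 tested genes was -0.085 with KD3010, with 9 of 12 below zero, and 0.103 with GW1516, with 8 of 12 above it, on the log2 scale. The medians over all features were -0.001 and 0.004. Both comparisons share the DMSO arrays. Set directly against each other, KD3010 was lower than GW1516 in 9 of 12 complement genes, at a median of -0.169, against -0.005 over all features. No test was made of these medians.

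The lectin pathway recognises microbial sugars through mannose-binding lectins and starts the cascade through their protease Masp1. Mbl2, one of 2 such lectins in mice, lay at 11.76 and 12 with DMSO, 11.59 on both arrays with KD3010 and 12.18 and 12.07 with GW1516. The 3 groups did not overlap, with KD3010 lowest and GW1516 highest. KD3010 differed from GW1516 by -0.53 ± 0.16, or 1.45-fold lower, the lowest p among the 49 genes in any comparison, and it was not called (adjusted p = 0.227 in limma's test). Against DMSO, KD3010 was at -0.29 (adjusted p = 0.524) and GW1516 at 0.24 (adjusted p = 0.682).

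Mbl1, the second lectin, lay at 9.86 and 9.88 with DMSO, 9.71 and 9.74 with KD3010 and 10.04 and 9.83 with GW1516. Its KD3010 arrays were below the other 4, by 0.21 ± 0.16 against GW1516 (adjusted p = 0.607). Masp1 lay at 9.96 and 9.73, then 9.91 and 9.64, then 10.45 and 9.95 in the same order of groups. Its KD3010 arrays lay below those of GW1516, at a difference of -0.42 ± 0.21 (adjusted p = 0.400), and overlapped DMSO.

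The terminal components, which form the pore that lyses cells, differed from each other in direction. C8a, the alpha chain of the eighth component, lay at 10.15 and 10.21 with DMSO, 10.08 and 10.16 with KD3010 and 10.59 and 10.42 with GW1516. Both GW1516 arrays were above the other 4. C8b, its beta chain, lay at 11.90 and 11.98 with DMSO, 12.14 and 12.06 with KD3010 and 11.72 and 11.74 with GW1516. Here both GW1516 arrays were the lowest and both KD3010 arrays the highest. KD3010 minus GW1516 was -0.38 ± 0.16 for C8a and 0.37 ± 0.15 for C8b (adjusted p = 0.328 for both in limma's test), so these chains of one complex had opposite signs and neither was called. C9, which polymerises into the pore, lay at 12.47 and 12.51 with DMSO, 12.62 and 12.82 with KD3010 and 12.72 and 12.53 with GW1516, with both agonist groups above DMSO (adjusted p = 0.628 and 0.849).

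The C8a window, chr4:104876349-104876648 on the minus strand (RefSeq, GRCm38.p6), is shown because it was the one complement gene among the 6 named between the agonists whose window held a searched motif. Capitals mark the letters of a STAT motif, TTCNNNGAA, from position -228, which match on both strands at the same bases.
C8a: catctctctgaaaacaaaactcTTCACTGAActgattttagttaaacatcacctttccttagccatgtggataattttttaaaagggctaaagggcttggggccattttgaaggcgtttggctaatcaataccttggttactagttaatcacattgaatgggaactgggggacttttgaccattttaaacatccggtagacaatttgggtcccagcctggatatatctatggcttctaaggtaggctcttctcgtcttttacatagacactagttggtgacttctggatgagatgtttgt

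For the classical pathway component C4b the groups overlapped, at 12.48 and 12.31 with DMSO, 12.32 and 12.19 with KD3010 and 12.22 and 12.54 with GW1516. Cfb, the alternative pathway protease, was the same within 0.02 between arrays of DMSO (12.86 and 12.88) and of KD3010 (12.70 and 12.72), with KD3010 lower. Cfi, the protease that degrades C3b and C4b, was 0.18 lower with KD3010 than with GW1516. Serping1, the C1 inhibitor, was higher with GW1516 than with DMSO by 0.17 with the arrays apart. C2, the protease of the classical and lectin convertase, was at -0.02 with KD3010 and 0.14 with GW1516, and C1s1, a protease of the C1 complex, at 0.04 and -0.21. Of these, C1s1 with GW1516 had its arrays apart from DMSO (adjusted p = 0.778 in limma's test). The other detected C1s1 probe read 0.10 with GW1516, with the arrays overlapping, and 0.38 with KD3010, with the arrays apart, so the direction depended on the probe.

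The coagulation genes were the nearest to DMSO in their class median with KD3010, at -0.033, and lay at 0.021 with GW1516 and -0.069 between the agonists. F11, the factor XI zymogen of the contact pathway, had the lowest p. It lay at 11.88 and 12.09 with DMSO, 11.75 and 11.54 with KD3010 and 11.94 and 12.27 with GW1516. Both KD3010 arrays were the lowest of the 6, and the DMSO and GW1516 arrays overlapped. KD3010 differed from GW1516 by -0.46 ± 0.18, or 1.38-fold lower (adjusted p = 0.313 in limma's test), and without GW1516 array B by -0.30. Of the other F11 probes, a dim one read -0.46 and a bright one -0.06 in the same comparison, so the probes agreed in sign and not in size.

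The F11 window, chr8:45261982-45262281 on the minus strand (RefSeq, GRCm38.p6), is shown as the coagulation gene of that group of 6. Its C/EBP match, marked in capitals at position -17, reads TTGCTTAA on the opposite strand.
F11: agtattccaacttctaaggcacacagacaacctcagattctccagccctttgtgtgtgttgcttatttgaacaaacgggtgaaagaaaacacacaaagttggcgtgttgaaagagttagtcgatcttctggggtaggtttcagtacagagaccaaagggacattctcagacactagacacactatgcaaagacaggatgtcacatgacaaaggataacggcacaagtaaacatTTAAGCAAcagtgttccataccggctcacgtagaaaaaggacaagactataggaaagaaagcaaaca

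Fibrinogen, the clot's substrate and itself an acute phase protein, was measured through 2 of its 3 chains. Fga lay at 15.03 and 14.83 with DMSO, 14.63 and 15.16 with KD3010 and 15.06 on both arrays with GW1516. Fgg lay at 13.32 and 13.21 with DMSO, 13.28 and 13.31 with KD3010 and 13.45 and 13.41 with GW1516. For both chains the GW1516 arrays lay above DMSO, by 0.13 for Fga (adjusted p = 0.879 in limma's test) and 0.17 for Fgg (adjusted p = 0.778), and the KD3010 arrays overlapped DMSO.

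F2, the prothrombin gene, lay at 12.73 and 12.93 with DMSO, 12.99 and 13.13 with KD3010 and 13.14 and 12.66 with GW1516. The KD3010 arrays lay above DMSO, while the GW1516 arrays spanned both groups. The vitamin K-dependent factor F9 was 0.20 lower with KD3010 than with DMSO, and F13b, a subunit of the factor that crosslinks fibrin, was 0.22 higher, each with the arrays apart (adjusted p = 0.673 and 0.624). Plg, the plasminogen gene, lay at 12.98 and 13.16, then 13.07 and 13.02, then 13.15 and 13.09, and KD3010 and DMSO overlapped. The other probes of Plg read 0.45 and 0.07 with KD3010 against -0.03 for the brightest.

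The remaining coagulation genes were the factors F5, F7, F10 and F12, Proc (the anticoagulant protein C), Serpind1 (heparin cofactor II, a thrombin inhibitor) and Serpinf2 (the plasmin inhibitor). Their differences from DMSO ran from -0.17 (Serpind1) to 0.11 (F12) with KD3010 and from -0.15 (F5) to 0.20 (F7) with GW1516. By the brightest probe, Serpind1 and F12 had their KD3010 arrays apart from DMSO, and the arrays of all 7 genes overlapped between GW1516 and DMSO. The other Serpinf2 probes read -0.25 and -0.20 with KD3010, each with the arrays apart. With GW1516 those probes read 0.18, with the arrays apart, and -0.13, with the arrays overlapping. With KD3010 the other F12 probes overlapped DMSO (0.07 and -0.01), and the other Proc probe was apart (0.13).

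Serpinc1, the gene of antithrombin, was measured by dim probes, with log2 levels of 6.79 and 7.77 with DMSO, 7.35 and 7.30 with KD3010 and 7.28 and 7.33 with GW1516. The gap between its DMSO arrays exceeded every difference between groups, and its interval with KD3010 ran from -0.57 to 0.66. Kng1, the kininogen gene, showed that probes of one gene could differ in direction: the brightest read -0.12 with KD3010 against DMSO and another 0.42 (adjusted p = 0.414 over all probes in limma's test).

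**Figure D3:**
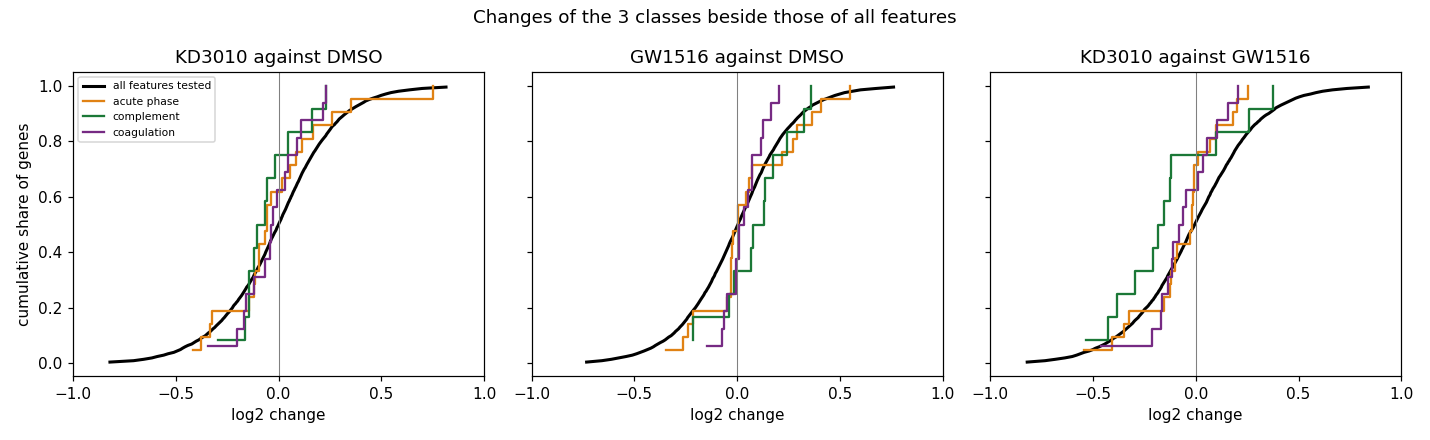
Cumulative share of genes (y axis) by log2 change (x axis) in each comparison, for the 3 classes and for all 8058 features (black). The complement curve lies mostly left of the black curve for KD3010 against GW1516, where its median was -0.169.

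Of the 49 genes, 16 had more than 1 detected probe. All probes of a gene had the same sign in 9 of these 16 with KD3010 against DMSO, in 6 with GW1516 against DMSO and in 7 between the agonists. Of the 72 detected probes, 0 passed an adjusted p of 0.05 in any comparison. A direction read from 1 probe for a small difference is therefore limited by the probe as well as by the array.

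**Figure D4:**
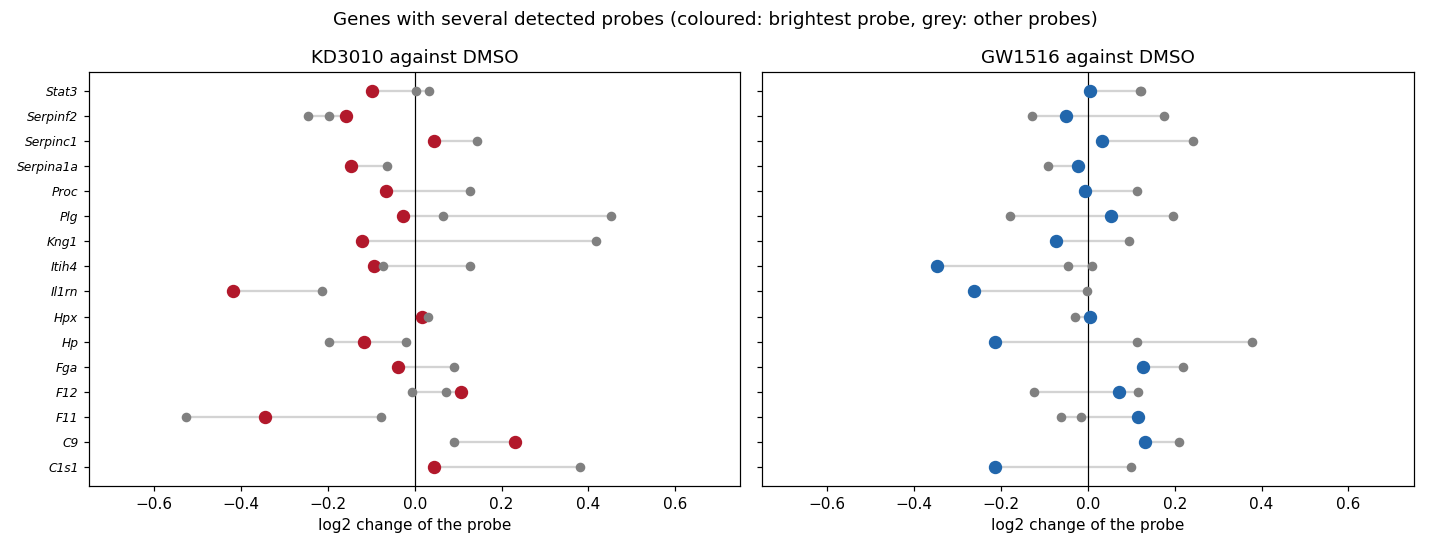
Log2 change (x axis) of each detected probe of the 16 genes with several probes (y axis), against DMSO, with KD3010 and with GW1516 in separate panels; coloured points are the brightest probe, used in the tests, and grey points the others. Probes of Hp, Kng1 and Plg lie on both sides of zero in at least 1 comparison.

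Against the DMSO arrays that both comparisons share, Crp was at -0.32 with KD3010 and 0.22 with GW1516, and C8b at 0.16 and -0.21. None of these was called, nor was the direct difference between the agonists.

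Other genes of the pathways, from lists written beside the named classes, were also without a call. Of 12 other tested acute phase genes, Mt2 and Cp were lower with KD3010 at an unadjusted p below 0.05 with arrays apart (6.75% of all features were), and both again with GW1516 (4.8%). In the other direction, Serpina1e was 0.51 higher with KD3010 (5.42% of all features) and Fgl1 0.46 higher with GW1516 (4.68%), with adjusted p-values of 0.269 and 0.478 in limma's test. Mt2, a metal-binding metallothionein, lay at 11.26 and 11.74 with DMSO, 10.27 and 10.00 with KD3010 and 10.51 and 10.77 with GW1516. All agonist arrays of Mt2 lay below DMSO, with KD3010 lowest, and the difference with KD3010 was 2.58-fold (adjusted p = 0.0551 in limma's test). Cp, the copper-carrying ferroxidase ceruloplasmin, lay at 12.90 and 12.87, then 12.04 and 11.95, then 12.46 and 12.43, in the same order. It was 1.85-fold lower with KD3010 (adjusted p = 0.101), and 1.36-fold lower for GW1516 (adjusted p = 0.429). Of 10 negative acute phase genes, such as Ttr and Apoa1, which fall in inflammation, 0 were at that unadjusted level in any comparison. Of all features, 12.2%, 9.48% and 13.9% were, in either direction. The median change of these 10 genes was -0.005 with KD3010 and -0.013 with GW1516.

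Upstream of these genes, 17 of 23 listed signalling genes were tested. The changes from DMSO named here were at an unadjusted p below 0.05 with arrays apart. Of all features, 5.42% were higher and 6.75% lower at that level with KD3010, and 4.68% and 4.8% with GW1516. Il6st, the gp130 chain that carries the interleukin-6 signal, lay at 7.75 and 7.70 with DMSO, 7.04 and 7.17 with KD3010 and 6.95 and 7.38 with GW1516. All agonist arrays of Il6st lay below DMSO. It was 0.62 ± 0.19 lower with KD3010 (adjusted p = 0.257 in limma's test) and 0.56 ± 0.19 lower with GW1516 (adjusted p = 0.418). Jak1 was 0.49 lower with KD3010 (adjusted p = 0.381), and Cebpa, a C/EBP factor of the differentiated hepatocyte, was 0.51 higher with KD3010 and 0.56 higher with GW1516 (adjusted p = 0.394 and 0.473). Tnfrsf1a, a tumour necrosis factor receptor, was 0.44 higher with GW1516 (adjusted p = 0.478). Between the agonists, 14 of the 17 signalling genes were lower with KD3010, at a median of -0.200 on the log2 scale, beside 4086 of 8058 features and a median of -0.005. No test was made of this count or median.

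Of 13 other complement genes tested, 0 reached an unadjusted p below 0.05 with arrays apart in any comparison, where 12.2%, 9.48% and 13.9% of all features did. Of 20 other genes of coagulation and fibrinolysis, Kng2 alone reached that level with KD3010 against DMSO. It was 0.40 lower (adjusted p = 0.403 in limma's test), and 6.75% of all features were lower at that level. Between the agonists, Thbd (thrombomodulin), F2r (a thrombin receptor) and Ggcx (the carboxylase that vitamin K serves) were lower with KD3010 at that level. Their differences were 0.52, 0.44 and 0.56 (adjusted p = 0.329, 0.336 and 0.357), and 7.77% of all features were lower at that level.

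A promoter window in RefSeq was found for 36 of the 49 genes. The C/EBP letters TTGCNNAA, searched on both strands, were in 14 of the 36 (38.9%), among them Saa1, Saa2, Saa3 and Saa4, which are related copies, and in 12.2% of the windows of 27025 genes. By class they were in 8 of 17 acute phase, 2 of 6 complement and 4 of 13 coagulation windows. The STAT letters TTCNNNGAA, which read the same on both strands, were in 6 of 36 (16.7%, against 9.55%). The direct repeat of AGGTCA with 1 base between the copies, which PPAR and RXR bind together, was in 0 of 36 and in 0.0481% of all windows. In the 4 printed windows no match overlapped one of another motif. The windows of Crp, Mbl2, C8b and Il6ra held no match to any of the 3 motifs. A match describes letters and not a bound site.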

How the data were processed

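The deposited unnormalized table gives each probe's average bead intensity (linear scale) and a detection p-value for every array, per the file headers. A second deposited table and the series matrix hold intensities normalized by the authors; the method is not given in the sources used here. Their values were equal (largest difference 0), and 1 unnamed column was not used. The submitters' processing notes name GenomeStudio.

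Background was corrected with normexp on the detection p-values (offset 16), followed by quantile normalization and log2 in limma 3.58.1 under R 4.3.3. A probe was kept if its detection p was under 0.05 on both arrays of any group (10530 probes), and the brightest kept probe stood for a gene. Symbols of the platform annotation were updated for 23962 probes through the Entrez identifier and 9 through the accession; 7 kept the array's symbol and 1719 probes are unnamed here. The linear model took in all 6 arrays (lmFit and eBayes, 3 residual and 6.54 prior degrees of freedom), with Benjamini-Hochberg adjustment across 8058 features. The fit was tested on simulated data. Intervals are 95% confidence intervals, and errors written with ± are standard errors. The 2 arrays per group limit the precision.

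The columns name a group and a letter, so arrays are called A and B. Genes given with every array were 20 well-known members and those at an unadjusted p below 0.05 with arrays apart, and Mbl1, Masp1, Il1rn, Itih4, Kng1 and other genes were added after their values were seen. The genes, lists, motifs and printed windows were chosen with earlier results of these data known.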

Additional observations from a re-analysis of the deposited data

How the results depend on the processing

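None of the 49 genes was called under any of the 17 alternatives in any of the 3 comparisons. Genes of the other lists, such as Mt2 and Cp, were not checked under these alternatives. Of 2496 values of the 49 genes under these alternatives, 2349 kept their sign and 147 changed it; the largest change whose sign turned was 0.37 on the log2 scale. The difference of Mbl2 between KD3010 and GW1516 stayed at an unadjusted p below 0.05 under 17 of 17 alternatives (-0.59 to -0.48), that of Crp under 16, and that of Lcn2 against DMSO under 13 (-0.43 to -0.33).

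Counts over all features moved with the setting; the cause was not tested. For KD3010 against DMSO, 10 calls became 34 without background correction, 24 with an offset of 50, 32 with the authors' normalized table or the series matrix, 6 without the filter on dim probes, 16 with probes detected on all 6 arrays, 49 with a trended robust variance, 1 with only the groups compared in the fit and 0 to 2 with an array left out. For GW1516 against DMSO, 7 calls became 2 with median scaling, 12 with the authors' table or series matrix, 2 without the filter, 17 with the trended variance and 0 to 5 with an array left out; without background correction and with an offset of 50 there were 10. Between the agonists, 0 calls became 38, 15, 39, 5 and 57 without background correction, with an offset of 50, with the authors' values, with probes detected on all 6 arrays and with the trended variance, and stayed at 0 with an array left out. 

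In the authors' normalized values, arrays of the same number did not deviate together (correlations of -0.007, -0.0038 and 0.0086). The labels do not say whether the numbers pair the samples, and these correlations cannot settle it. With the series matrix and a replicate block the calls were 38, 20 and 45, and Crp and Mbl2 between the agonists had adjusted p-values of 0.0301 and 0.0313, below 1.5-fold and so not called.

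Median scaling gave a median of all features of -0.121 with KD3010, -0.092 with GW1516 and -0.03 between the agonists. Under it the class medians were, with KD3010, -0.151 for acute phase, -0.202 for complement and -0.125 for coagulation genes, and with GW1516 -0.088, -0.007 and -0.077. When probes of a gene were averaged, coagulation was 0.031 with KD3010 and -0.032 between the agonists, and acute phase 0.041 with GW1516. Leaving out an array gave, with KD3010, GW1516 and between the agonists, -0.082 to 0.004, 0 to 0.06 and -0.06 to -0.001 for acute phase, -0.135 to -0.072, 0.045 to 0.135 and -0.212 to -0.13 for complement, and -0.051 to 0.008, -0.006 to 0.037 and -0.121 to 0.006 for coagulation. The slide as a block was not run, because neither labels nor column names give a slide.

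At an unadjusted p below 0.05 with arrays apart, 0 to 6, 0 to 4 and 2 to 9 of the genes stood out over the alternatives in the 3 comparisons.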
